A study of Caenorhabditis elegans with 2 samples.

Results

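The GATA factors of gut and epidermis in Caenorhabditis elegans are a family of zinc-finger transcription factors that bind DNA at sites with the core letters GATA. They were taken as the 10 genes of the count table whose WormBase symbol is elt-1, elt-2, elt-3, elt-4, elt-6, elt-7, end-1, end-3, med-1 or med-2, out of 46748 gene identifiers in all, and each symbol matched 1 identifier. RNA came from whole wild-type hermaphrodites (N2 in the sample titles, an unspecified wild type in the strain label), 5 days of age and given heat-inactivated Escherichia coli OP50, the usual laboratory food bacterium. The labels do not say from which stage the 5 days were counted. Both libraries belong to this 1 group, so there was no contrast between conditions, and the values below compare members with each other, with other genes and between 2 libraries of the same kind. Nothing in the labels says that the libraries came from separate cultures, so their spread may be technical.

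In the embryo these factors work as a relay. The maternal protein SKN-1 switches on med-1 and med-2 in the blastomere that gives rise to gut and mesoderm, the MED proteins switch on end-1 and end-3 in the gut precursor with help from Wnt signalling and POP-1, and the END proteins switch on elt-2 and elt-7. ELT-2 then sustains its own gene and runs the intestine through larval and adult life, with ELT-7 as a partly redundant partner. In the epidermis ELT-1 specifies the tissue in the embryo, ELT-3 acts below it in the main epidermal cells, and ELT-6 acts with its neighbour EGL-18 (also called ELT-5) in the seam cells and the vulva.

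The genes are small and spread over chromosomes III, IV, V and X (WBcel235, Ensembl annotation, all on the plus strand). Of the intestinal factors, elt-2 (WBGene00001250) lies on chromosome X from 10481240 to 10483441, in 9 exons with 1558 exonic bases, and elt-7 (WBGene00015981) lies on chromosome V from 4770670 to 4773086, with 841 exonic bases. The elt-4 gene (WBGene00001252, chromosome X, 10475527 to 10475959), which encodes a truncated relative of ELT-2, ends 5280 bases before elt-2 begins and has 388 exonic bases. Among the embryonic factors, end-1 (WBGene00001310, 13985128 to 13987074) and end-3 (WBGene00001311, 14014695 to 14015980) lie 27620 bases apart on chromosome V. The med-1 gene (WBGene00003180, chromosome X, 12430609 to 12431133) and the med-2 gene (WBGene00003181, chromosome III, 6884503 to 6885027) are each annotated as a single exon of 525 coding bases without untranslated regions.

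The epidermal genes have longer models. The elt-1 gene (WBGene00001249, chromosome IV, 9614995 to 9620280) has 6 transcripts and 2212 exonic bases, and elt-3 (WBGene00001251, chromosome X, 13934874 to 13941216) has 6 transcripts and 1466 exonic bases. The elt-6 gene (WBGene00001253, chromosome IV, 1917977 to 1921643) has 1405 exonic bases and begins 136 bases after egl-18 (WBGene00001186, chromosome IV, 1902322 to 1917840) ends. No member except end-3 shared exonic bases with another annotated gene, and end-3 shared 3 bases with srh-308 on the other strand, which had 0 counts in both libraries.

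**Figure D1:**
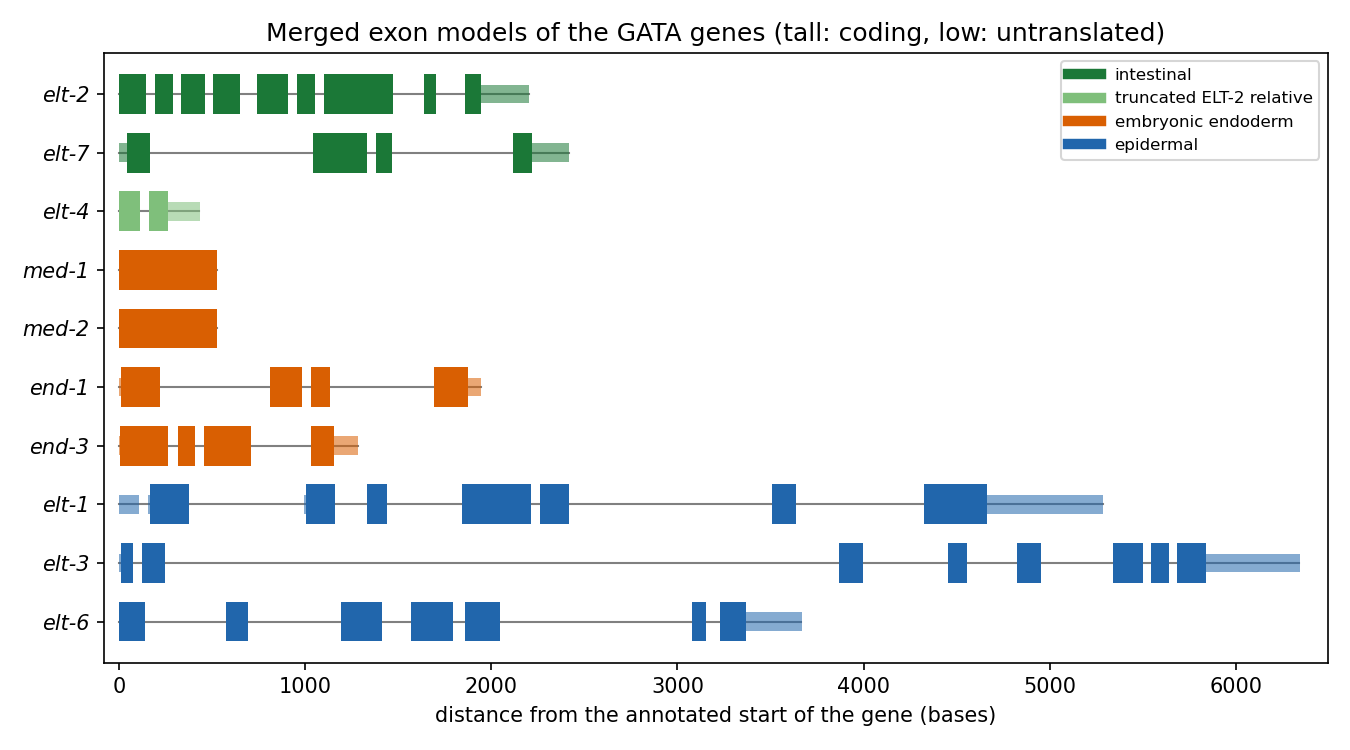
Merged exon models of the 10 genes, by distance in bases from the annotated start of each gene: tall boxes are coding, low boxes untranslated and lines are introns. The med-1 and med-2 genes are single coding exons of 525 bases, while elt-1 and elt-3 span 5286 and 6343 bases.

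The library totals were 28164638 counts (replicate 1) and 31271070 counts (replicate 2). The 10 members together took 1062 and 1111 of these in replicates 1 and 2, or 0.00377% (95% Wilson interval 0.00355% to 0.00400%) and 0.00355% (0.00335% to 0.00377%). Levels are given as CPM (counts scaled to the library's own total) per kilobase of exon, as the mean ± SD over the 2 libraries. Intervals are 95% and cover counting error only, and 3 counts, taken as the floor, equal 0.107 and 0.0959 CPM. Markers fitted the labelled whole animals: vit-2 (a yolk protein gene of the intestine), oma-1 and pgl-1 (oocyte and germline genes) stood at 4146 ± 54.4, 232 ± 1.69 and 241 ± 0.273 CPM per kb. All 13 genes of the tissue check, which also held muscle, neuron and epidermis genes, were detected, beside 62.5% of protein-coding genes. The lowest of the 13 were the neuronal gene rab-3 (1.81 ± 0.159 CPM per kb) and the larval cuticle collagen gene dpy-7 (1.22 ± 0.422 CPM per kb). The other neuronal gene, snb-1, stood far higher, at 192 ± 12.7 CPM per kb.

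Detection was called where neither library had fewer than 10 counts, and it held for 6 of the 10 members, beside 62.5% of the 19641 protein-coding genes. The detected members were elt-1, elt-2, elt-3, elt-6, elt-7 and end-3, so both intestinal factors, all 3 epidermal factors and 1 of 4 embryonic endoderm factors. The median level of the 10 members was 1.82 and 1.68 CPM per kb in replicates 1 and 2, beside 1.27 and 1.28 CPM per kb for all protein-coding genes. Because whole animals were sequenced, fewer cells of a type and less RNA per cell cannot be told apart in any of these levels.

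**Figure D2:**
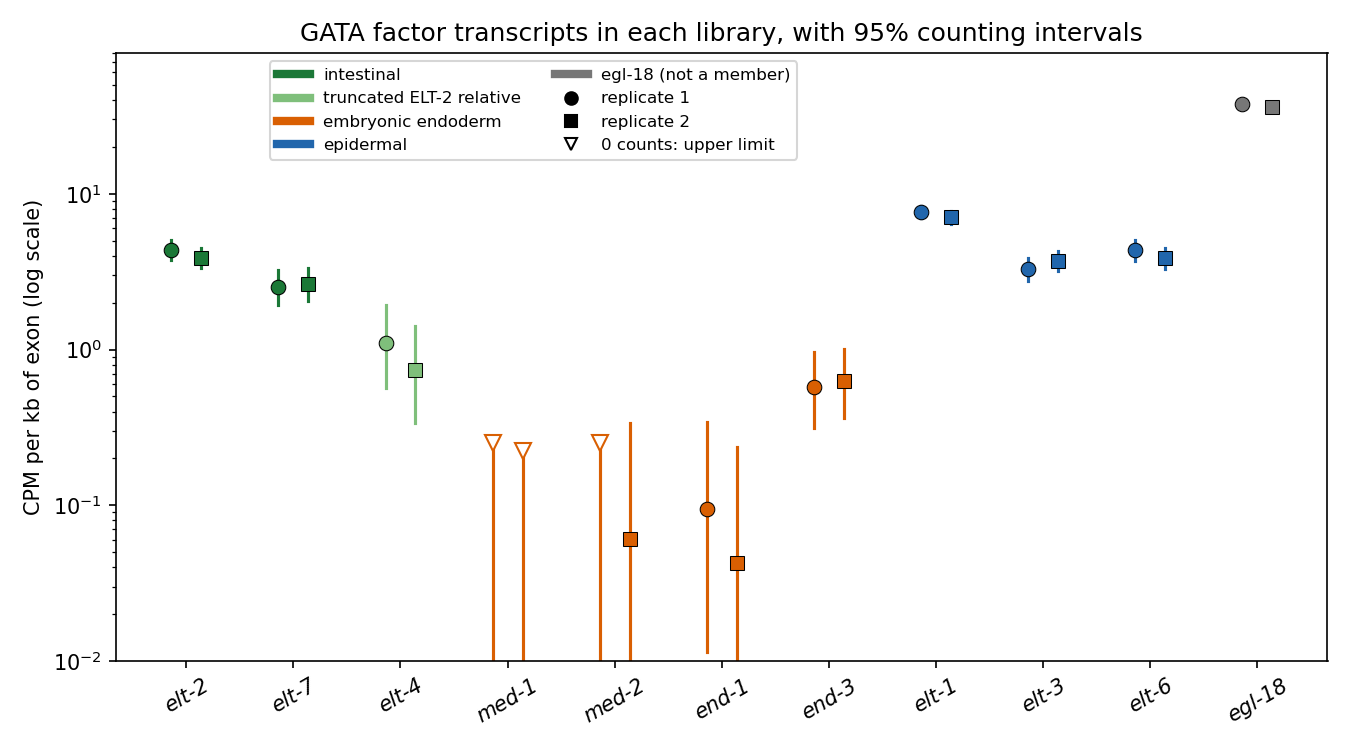
Level of each GATA gene in each library (CPM per kb of exon, log scale; circles replicate 1, squares replicate 2), with 95% Poisson intervals whose lower ends are cut at the bottom of the axis. Open triangles mark the upper limit where a library had 0 counts. The intestinal and epidermal factors lie between 2.53 and 7.62 CPM per kb, and the 4 embryonic factors all lie under 0.63 CPM per kb.

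The master regulator of the intestine, elt-2, had 192 and 188 counts in replicates 1 and 2, which is 4.38 CPM per kb (95% interval 3.78 to 5.04) and 3.86 CPM per kb (3.33 to 4.45). The libraries' intervals overlap, and the mean was 4.12 ± 0.365 CPM per kb (SD, n = 2). That level exceeded those of 60.3% of protein-coding genes but lay under the median of the detected ones, 11.3 and 11.6 CPM per kb.

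Its partner elt-7 had 60 and 69 counts, or 2.53 CPM per kb (1.93 to 3.26) in replicate 1 and 2.62 CPM per kb (2.04 to 3.32) in replicate 2. The elt-2 transcript was therefore above that of elt-7 in both libraries, by 1.73-fold in replicate 1 (counting interval 1.29 to 2.35) and 1.47-fold in replicate 2 (1.11 to 1.97). Over their means, elt-7 stood at 2.58 ± 0.0641 CPM per kb. The size of the excess depends on the gene length used. With coding length in place of exon length, mean levels were 4.93 CPM per kb for elt-2 and 3.63 CPM per kb for elt-7. That is a smaller relative gap, for which no counting interval was computed. The replicate 2 interval, which began at 1.11 with exon length, would move down with coding length. The excess in replicate 2 may therefore not exceed counting error with that length.

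The third gene of the intestinal branch, elt-4, whose short product has no established role, was close to the limit of detection. It had 12 counts in replicate 1 and 9 in replicate 2, so it passed the minimum of 10 in replicate 1 only. Its level was 1.10 CPM per kb (0.567 to 1.92) in replicate 1 and 0.742 CPM per kb (0.339 to 1.41) in replicate 2, and elt-2 exceeded it by 3.98-fold (2.23 to 7.85) and 5.20-fold (2.68 to 11.6). As elt-4 is related to elt-2 in sequence and no source used here gives the handling of reads with several matches, this small count is uncertain.

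The embryonic factors that precede elt-2 in the relay were at or near 0, apart from end-3. The first of them, med-1, had 0 counts in both libraries, which allows up to 0.203 CPM per kb in replicate 1 and 0.183 CPM per kb in replicate 2 at the floor of 3 counts. Its near-identical copy med-2 had 0 counts in replicate 1 and 1 in replicate 2. Reads that match both copies may have been left out by the counting, so the level of the pair is uncertain. Set against the floor of 3 counts for med-1, the measured elt-2 level was 21.6-fold higher in replicate 1 and 21.1-fold higher in replicate 2. These folds leave out counting error and are not lower bounds.

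Of the END genes, which commit the precursor to gut, end-1 had 2 and 1 counts, and end-3 had 14 and 17 counts. The end-3 level was 0.575 CPM per kb (0.314 to 0.964) in replicate 1 and 0.628 CPM per kb (0.366 to 1.01) in replicate 2, the only embryonic factor over 10 counts. It exceeded end-1 by 6.06-fold in replicate 1 and 14.7-fold in replicate 2, with counting intervals of 1.39 to 54.9 and 2.31 to 615, so the size of the gap is poorly fixed at this depth. The intestinal factors lay above end-3 in both libraries, elt-2 by 7.61-fold (4.43 to 14.2) and 6.14-fold (3.73 to 10.8), and elt-7 by 4.41-fold (2.43 to 8.54) and 4.17-fold (2.43 to 7.57).

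Summed over each set, the adult intestinal factors elt-2 and elt-7 reached 6.91 and 6.48 CPM per kb in replicates 1 and 2, against 0.669 and 0.732 CPM per kb for med-1, med-2, end-1 and end-3. The difference was 3.26 ± 0.16 on the log2 scale (SD, n = 2), a 9.56-fold excess, and it had the same direction in 2 of 2 libraries. No test was run on it, since there is 1 group of 2 libraries and genes are not replicates. With the embryonic members that fell under 3 counts raised to that floor, an alternative added after the data were seen, the excess was 5.96-fold, and it was 14.6-fold for CPM without division by length.

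Summed over each set, the 3 epidermal GATA transcripts exceeded the 2 intestinal ones in both libraries, but of the single genes only elt-1 was separated from elt-2 upwards. Levels of whole animals do not show in which tissue these transcripts were made. The sums therefore do not compare expression in the epidermis with that in the intestine. The embryonic specifier of the epidermis, elt-1, was the highest of the 10 members, with 475 and 487 counts. It stood at 7.62 CPM per kb (6.95 to 8.34) in replicate 1 and 7.04 CPM per kb (6.43 to 7.69) in replicate 2, above 65.2% of protein-coding genes. It exceeded elt-3 by 2.33-fold (1.92 to 2.84) and 1.90-fold (1.59 to 2.27), and elt-2 by 1.74-fold (1.47 to 2.07) and 1.82-fold (1.54 to 2.17).

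The elt-3 gene, active in the main epidermal cells, had 135 and 170 counts, or 3.27 CPM per kb (2.74 to 3.87) in replicate 1 and 3.71 CPM per kb (3.17 to 4.31) in replicate 2. Relative to elt-2, elt-3 was 0.747-fold (0.595 to 0.936) in replicate 1 and 0.961-fold (0.776 to 1.19) in replicate 2. The seam cell factor elt-6 had 172 and 169 counts, at 4.35 CPM per kb (3.72 to 5.05) and 3.85 CPM per kb (3.29 to 4.47). The level of elt-3 relative to elt-6 was 0.752-fold (0.596 to 0.948) in replicate 1 but 0.964-fold in replicate 2, where the counting interval held 1. The epidermal set summed to 15.2 and 14.6 CPM per kb, against 0.669 and 0.732 CPM per kb for the embryonic endoderm set, a log2 difference of 4.41 ± 0.14 (SD, n = 2) or a 21.3-fold excess. That excess was 46.1-fold for CPM without division by length, 13.3-fold with the floor of 3 counts and 74.0-fold with egl-18 counted as epidermal. The intestinal minus the epidermal set came to -1.16 ± 0.021 on the log2 scale, and to -0.52 as a mean of log2(CPM per kb + 0.1) over members, which does not grow with the number of genes in a set.

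The partner of elt-6 outside the 10 members stood far above all of them. The elt-6 transcript was lower than that of egl-18 by a ratio of 0.116 (0.0985 to 0.136) in replicate 1 and 0.106 (0.0901 to 0.124) in replicate 2. The egl-18 gene had 1781 and 1912 counts, 36.9 ± 0.878 CPM per kb, above 81.3% of protein-coding genes, and elt-1, the highest member, reached 0.203 and 0.194 of that level in replicates 1 and 2. Counted with the epidermal factors, egl-18 moved the log2 difference of the intestinal minus the epidermal set to -2.95.

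By mean level, the 11 genes ran egl-18, elt-1, elt-2, elt-6, elt-3, elt-7, elt-4, end-3, end-1, med-2 and med-1. Neighbours were called apart where the lowest bound of the upper gene in either library lay above the highest bound of the lower one. This held between egl-18 and elt-1, between elt-1 and elt-2, and, narrowly, between elt-7 and elt-4 (1.93 against 1.92 CPM per kb). Each pair of neighbours from elt-2 down to elt-7 overlapped, as did each pair from elt-4 down to med-1. Some pairs further apart in the order did meet the same rule. Examples are elt-2 over elt-7, narrowly (3.33 against 3.32 CPM per kb), and elt-4 over med-1 (0.339 against 0.249 CPM per kb). With coding length in place of exon length, elt-3 came before elt-6 and elt-2.

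Between the libraries, the members with enough counts to compare differed by less than their counting error. Of the 7 members whose summed counts reached 10, 0 differed by 2-fold or more between the libraries, beside 3.83% of the 13688 protein-coding genes with that many counts. The ratio of replicate 2 to replicate 1 in CPM ran from 0.675 for elt-4 (0.251 to 1.75) to 1.13 for elt-3 (0.899 to 1.43). All 7 counting intervals held 1. For elt-2 the ratio was 0.882 (0.717 to 1.08) and for elt-1 it was 0.923 (0.812 to 1.05), while for end-3 it was 1.09 and its interval ran from 0.507 to above 2, so that a 2-fold difference was not detectable at this depth.

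**Figure D3:**
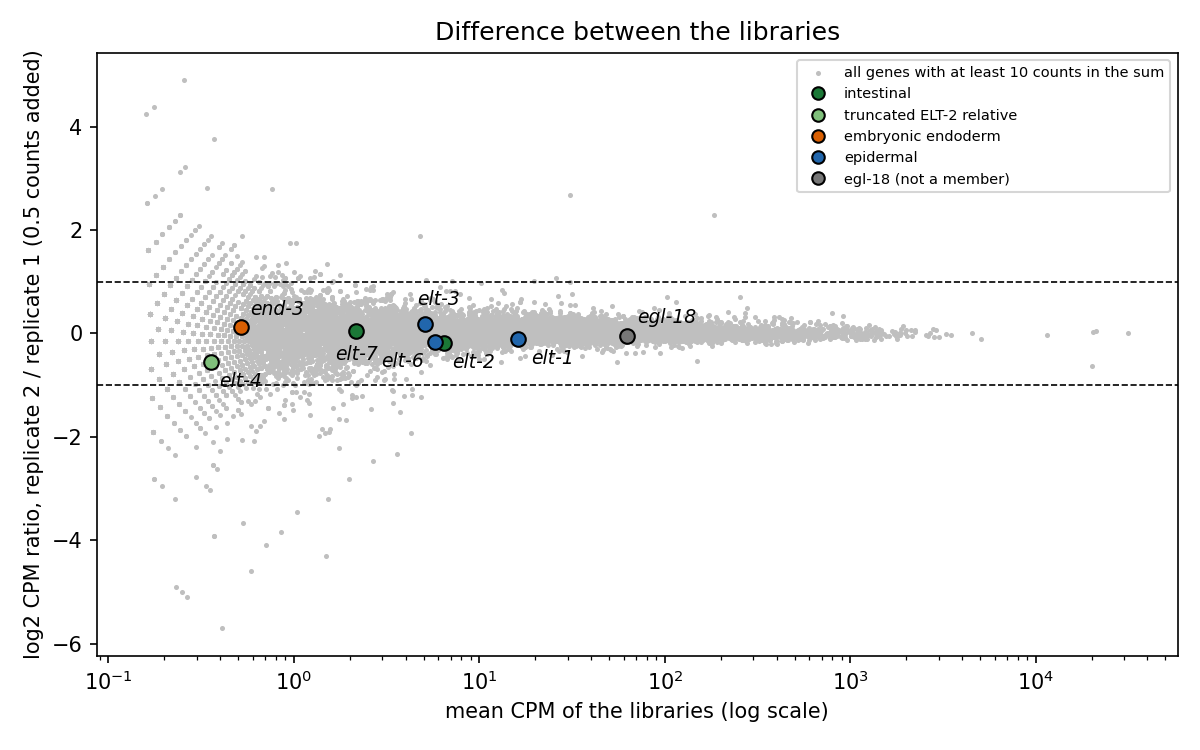
Log2 CPM ratio of replicate 2 to replicate 1 (0.5 counts added to each) against mean CPM on a log scale, for the genes whose counts in both libraries sum to 10 or more (grey) and the GATA genes among them (coloured). Dashed lines mark 2-fold, and all 7 members shown lie between them.

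The maternal genes that act before the relay were all detected, most of them far above the GATA factors of the embryo. All 17 maternal endoderm inputs were detected, at a median of 65.8 and 65.3 CPM per kb, and 16 of 17 lay above elt-2. Of all 19641 protein-coding genes, 12268 (62.5%) were detected and 7787 lay above elt-2. Among the inputs, levels differed widely. The highest were mex-1, which encodes an RNA-binding protein that restricts SKN-1 to its proper blastomeres (253 and 239 CPM per kb in replicates 1 and 2), the Wnt ligand gene mom-2 (192 ± 3.91 CPM per kb) and the casein kinase gene kin-19 (183 ± 2.63 CPM per kb). The lowest were mes-1 (10.2 ± 0.603 CPM per kb), a receptor-kinase-like gene of the same signalling step, and mom-1, the porcupine homologue needed to secrete Wnt (3.87 ± 0.173 CPM per kb). The activator of the med genes, skn-1, stood at 109 ± 4.52 CPM per kb, beside 0 counts of med-1, and pop-1, the Wnt effector of the gut decision, at 30.5 ± 0.528 CPM per kb.

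Other genes transcribed in the early embryo were partly present, and whether their transcripts came from embryos or from the mothers was not tested. Of 15 such genes, 12 were detected, beside 62.5% of protein-coding genes, with summed levels of 69.1 and 70.1 CPM per kb in the libraries. The detected gene hlh-1 is also counted in the list of regulators of other tissues below. The T-box gene tbx-9 (25.4 ± 0.364 CPM per kb), the nuclear receptor gene nhr-2 (18.3 ± 0.198 CPM per kb) and ref-1, a Notch target (6.90 ± 0.527 CPM per kb), led the list. The lowest detected were sdz-38 (0.479 ± 0.00596 CPM per kb) and the posterior Hox gene nob-1 (0.477 ± 0.00209 CPM per kb). The genes the MED proteins act through on the mesoderm side were near 0 like med-1 itself: tbx-35 had 0 counts in both libraries and its target ceh-51 had 4 and 2, and sdz-23 also had 0. The part of embryos carried by the mothers in the end-3 counts was not tested.

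Genes of the working intestine covered a wide range of levels, mostly above those of their regulators. All 17 intestinal differentiation genes were detected (median 106 and 102 CPM per kb), beside 62.5% of protein-coding genes. Beside 7787 of all 19641 protein-coding genes, 16 of 17 lay above elt-2. The yolk protein genes vit-6 (6231 ± 0.366 CPM per kb) and vit-2 and the cathepsin B-like protease gene cpr-1 (871 ± 43.4 CPM per kb) led them. The acid phosphatase gene pho-1 (4.39 ± 0.0538 CPM per kb) and the sodium-proton exchanger gene nhx-2 (3.42 ± 0.462 CPM per kb) were lowest. Relative to the gut esterase gene ges-1, a classical ELT-2 target singled out after its values were seen, elt-2 had a level of 0.236-fold (0.201 to 0.275) in replicate 1 and 0.192-fold (0.163 to 0.224) in replicate 2.

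Other regulators with a role in the intestine were all more abundant than elt-2 (7 of 7, beside 7787 of all 19641 protein-coding genes). Their 7 genes had medians of 40.6 and 37.6 CPM per kb, led by the stress and immunity factor gene atf-7 (88.1 ± 1.03 CPM per kb), zip-2 (52.2 ± 4.12 CPM per kb) and the fat metabolism receptor gene nhr-49 (51.9 ± 0.0940 CPM per kb). The lowest were pqm-1 (13.9 ± 0.00488 CPM per kb), whose product binds a GATA-like element in stress genes, and hlh-30, a regulator of autophagy (11.3 ± 0.494 CPM per kb). The level of elt-2 relative to pqm-1, also singled out after its values were seen, was 0.316-fold (0.265 to 0.376) and 0.278-fold (0.234 to 0.330) in replicates 1 and 2. Several of these regulators are also active outside the intestine, which the levels of whole animals do not separate.

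Regulators that specify other tissues were scarcer. Of 12 such genes, 9 were detected, beside 62.5% of protein-coding genes, with medians of 0.675 and 0.582 CPM per kb. Beside 7787 of all 19641 protein-coding genes, 1 of 12 lay above elt-2. The sex determination gene tra-1 (9.17 ± 1.61 CPM per kb), the Hox gene lin-39 (1.76 ± 0.164 CPM per kb) and the pharynx regulator pha-4 (1.52 ± 0.0353 CPM per kb) were highest, and unc-3 (0.214 ± 0.0158 CPM per kb) and ceh-22 (0.142 ± 0.0105 CPM per kb) were lowest among the detected. The level of elt-2 was 2.83-fold that of pha-4 (2.20 to 3.66) in replicate 1 and 2.58-fold (2.01 to 3.32) in replicate 2.

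Epidermal and seam genes were low apart from a few. Of 14 genes 12 were detected, beside 62.5% of protein-coding genes, at medians of 1.18 and 0.729 CPM per kb over all 14. Beside 7787 of all 19641 protein-coding genes, 3 of 14 lay above elt-2. Those were lin-26, which maintains epidermal fate (69.7 ± 1.05 CPM per kb), the adult collagen gene col-19 (51.1 ± 3.52 CPM per kb) and the moulting receptor gene nhr-23 (24.7 ± 0.508 CPM per kb). The hedgehog-related gene wrt-2 (0.463 ± 0.0962 CPM per kb) and the cell fusion gene aff-1 (0.211 ± 0.0446 CPM per kb) were lowest among the detected. In this list 1 of 14 genes, the larval collagen gene rol-6, differed by over 2-fold between the libraries, with 43 counts in replicate 1 and 20 in replicate 2. That stands beside 3.83% of the 13688 protein-coding genes whose summed counts reached 10. The elt-1, elt-3 and elt-6 genes did not differ by that much.

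**Figure D4:**
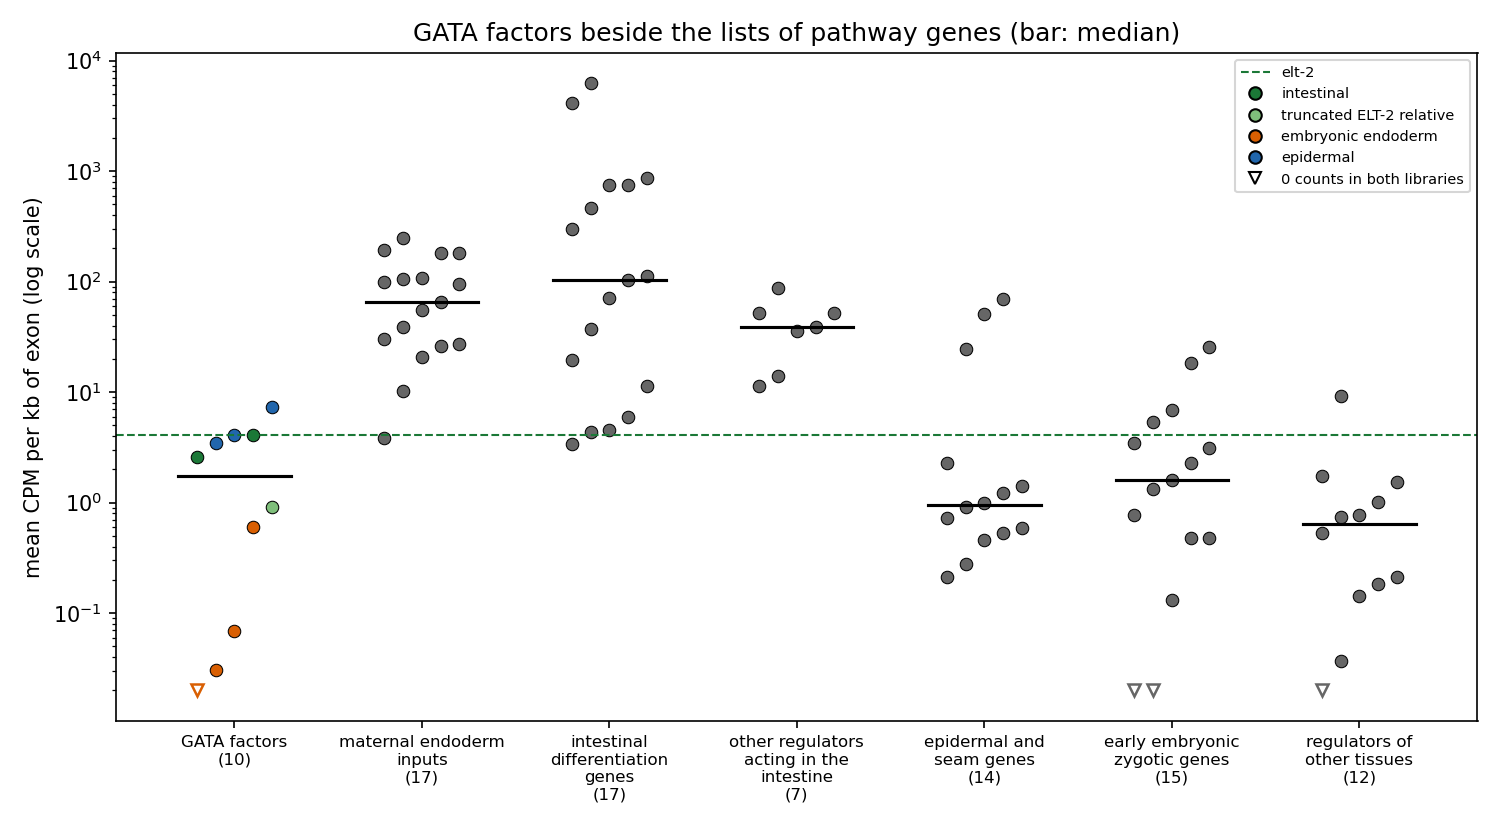
Mean CPM per kb of exon (log scale) of the 10 GATA factors (coloured) and of the genes of 6 lists (grey), with the number of genes of each list in brackets, the median as a bar and the elt-2 level as a dashed line. Open triangles at the bottom mark genes with 0 counts in both libraries. Of the maternal inputs and of the intestinal differentiation genes, 16 of 17 lie above elt-2, beside 7787 of all 19641 protein-coding genes.

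Many genes had levels like those of the intestinal factors. By Euclidean distance of log2 CPM per kb over the 2 libraries, the protein-coding genes nearest to elt-2 were pes-7 (distance 0.00943), the epidermal factor elt-6 (0.0106) and the amino acid transporter gene aat-1 (0.0149), and 40 genes lay within 0.1. Nearest to elt-7 were T07G12.5 (distance 0.0120), malt-1 (0.0143) and oac-14 (0.0153), with 64 genes within 0.1. With 2 libraries of the same group, such likeness is one of level.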

How the data were processed

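Messenger RNA of whole animals was sequenced in 2 libraries of 1 group. The submitters' processing notes name the build WBcel235, the tool featureCounts (1.4.6-p4) and the aligner STAR (2.4.1d). No source used here gives the counting options, strand setting, annotation release or handling of reads with several matches. The deposited table gives raw counts per gene. Totals were 28164638 and 31271070, and 46449 of 46748 identifiers were in the Ensembl annotation of that build, from which biotypes, positions and merged exon lengths were taken. Levels were computed from the deposited counts as CPM divided by exon length. The authors' RPKM values were used only as an alternative: over the 5998 genes that exceeded 500 counts in each library, the ratio of read totals they imply repeated with the row number every 8 rows, from 0.787 to 1.27, against 0.901 for the libraries' own totals, and 100% lay within 0.1% of their class. RPKM ratios between the libraries were therefore not used. Genes at different row positions are also scaled by different totals in at least 1 library. The RPKM alternative is thus a weak check of the levels of genes and of the differences between sets.

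Replicates were numbered in accession order. Counts got exact Poisson intervals, ratios got intervals from the exact binomial (Clopper-Pearson), and shares got Wilson intervals, all at 95% and for counting error only. The intervals were checked only on counts simulated with Poisson error and no further spread between libraries. That check cannot show how they behave under such spread. With 1 group no test was run and no p-value is given. A difference between the libraries was called at 2-fold, in genes whose summed counts reached 10. All members and egl-18 are named, as are the 3 highest and 2 lowest detected genes of each list. The 3 genes nearest in level to elt-2 and elt-7 are named too. The genes skn-1, pop-1, tbx-35, ceh-51, sdz-23, rol-6, ges-1 and hlh-1 were named after their values were seen. The members and lists were chosen with earlier results of these data known. Alternatives were other lengths, other scalings (TMM from edgeR 4.0.16, or totals without the 100 most abundant genes), other minimum counts, another summary of a list and each library alone. Python 3.11.15, pandas 2.3.3 and scipy 1.17.1 were used. Sequences of the members were not used here.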

Additional observations from a re-analysis of the deposited data

How the results depend on the processing

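All 3 differences between sets of GATA factors kept their direction under every alternative run, and none reversed. The intestinal minus embryonic difference (3.26 on the log2 scale) was 3.87 without division by length, 4.10 as a mean of log2(CPM per kb + 0.1) over members, 3.44 with elt-4 counted as intestinal and 2.58 with embryonic members set to at least 3 counts. The epidermal minus embryonic difference (4.41) was 4.72 with coding length, 5.53 without length, 4.62 as a mean of logs, 6.21 with egl-18 counted as epidermal and 3.73 with the floor. The intestinal minus epidermal difference (-1.16) was -1.34 with coding length, -1.66 without length, -1.18 with RPKM as deposited, -0.52 as a mean of logs and -2.95 with egl-18. Each library alone gave 3.15 to 3.37, 4.32 to 4.51 and -1.17 to -1.14. Scaling cancels within a library, so TMM and totals without the 100 most abundant genes changed none of the 3.

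Between 5 and 8 members were detected under the other minimum counts. At the main minimum 73 of 81 genes of the lists were detected, beside 62.5% of protein-coding genes. Under the other minimum counts or in 1 library, 64 to 77 of the 81 were detected, a check added after the data were seen. The share of all protein-coding genes was not computed for these alternatives, so their counts cannot be set against it. With no filter on counts, 2 members (end-1, with 2 and 1 counts, and med-2, with 0 and 1) differed by 2-fold or more between the libraries. The 10 members kept their places under both scalings, and 8 of 10 did so with coding length, RPKM as deposited and replicate 2 alone. The RPKM carry read totals that change with row number, so their order of genes is a weak check. In replicate 1 alone med-1 and med-2 were tied at 0 counts and the others kept their places. No paired analysis was possible because there is 1 group. Depth limits elt-4, end-1, end-3, med-1 and med-2 most, all with under 20 counts a library, and 2 libraries give a rough SD.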
